A study of Mus musculus with 9 samples.

Results

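The genes described here are 10 components of the G1 control of the cell cycle: the D-type cyclins Ccnd1, Ccnd2 and Ccnd3, their kinases Cdk4 and Cdk6, the inhibitors Cdkn1a, Cdkn1b, Cdkn2c and Cdkn2d, and the retinoblastoma gene Rb1. They were taken by symbol from a table of 23951 genes, and all 10 were found, each in 1 row. The cells were bone marrow-derived mast cells (BMMCs), which were cultured from wild type C57BL/6 mice over 4 to 6 weeks. The medium held IL-3 and SCF, the ligand of the receptor Kit, each at 10 ng/ml. The labels give more than 95% of the cells as positive for the high-affinity IgE receptor and CD117. Such cultures are mast cells grown outside the body under growth factors, and no label says whether the libraries come from separate animals or cultures. There were 3 libraries in each of 3 groups. The first group was untreated, the second had received DNP-specific IgE at 0.5 µg/ml for 18 h, and the third the same IgE followed by DNP-BSA at 50 ng/ml for 2 h. DNP-BSA carries many DNP groups and so cross-links IgE on its receptor, and the third group is called the antigen group.

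In G1, D-type cyclins bind CDK4 or CDK6, and the active kinase phosphorylates the retinoblastoma protein, which releases E2F transcription factors that drive genes of DNA replication. INK4 proteins bind CDK4 and CDK6 directly and block them. CIP/KIP proteins (p21, p27) inhibit the cyclin E-CDK2 complex and also bind and help to assemble cyclin D complexes. Much of this control acts on protein stability and phosphorylation, which RNA levels do not show.

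Levels are given in FPKM, that is, fragments counted on a transcript, divided by its length and by the mapped fragments of the library, so levels of different genes can be set side by side. Changes are log2 differences of FPKM + 1, with the SE and the adjusted p of limma, a linear model fitted to the 10890 genes that reached 1 FPKM in 3 or more libraries, and a gene was called at an adjusted p under 0.05. A fold is the mean FPKM of a group divided by that of another, ± gives the SD of the 3 libraries (n = 3), and intervals are 95% intervals of the log2 change. All 10 genes passed the filter, although Ccnd1 and Cdkn2d reached 1 FPKM in only 1 of the 3 antigen libraries and passed through the other groups. Depth estimated from the steps of low values was 20.5 to 39.2 M reads (M, mega), and was lowest in the antigen group, at 20.5 to 28.1 M. IgE replicate 3 was the library least like its own group, with an SD of log2 differences of 0.175 against 0.099 to 0.123, and for 7 of the 10 genes it had the highest and for 2 the lowest value of the IgE group. Antigen replicate 3 lists at 0 all 437 chromosome X genes that every other library has above 0, and none of the 10 genes lies on X or Y. The mast cell markers Kit (433 to 457 FPKM by group mean), Fcer1a (4820 to 5650) and Tpsb2 (6260 to 7420) were abundant, while Cpa3 and Cma1 were listed at 0 in all 9 libraries. Of the 10 tested genes of the mast cell list, 5 were called higher and 1 lower in antigen against IgE. Between these groups Ms4a2 fell from 1080 to 626 FPKM by group mean, while Hdc rose from 28.7 to 895 and Srgn from 5940 to 9180. Summed levels of other markers reached 1.69 FPKM for the lymphoid and dendritic list, 2.96 for the neutrophil list, 6.2 for the erythroid list and 29.5 for the macrophage list. The basophil and eosinophil list summed to 121 to 147 FPKM in untreated, 106 to 115 in IgE and 74.9 to 80 in antigen libraries, mostly Prss34. By group mean Prss34 fell from 120 through 92.1 to 54.7 FPKM, while Mcpt8 of the same list rose from 12.4 through 16.9 to 19.5. Siglec5 went from 0.339 through 0.208 to 2.8 FPKM, and Epx and Prg2 stayed under 1 FPKM. The megakaryocyte list summed to 361 to 440 FPKM, mostly Itga2b, with Ppbp listed at 0. Some of these marker levels differed between the groups, in different directions, and their part in the results was not tested. In bulk RNA, fewer cells of a type and less RNA per cell cannot be told apart.

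The rank of the genes by level changed with treatment. In untreated cells Cdk4 led with 96.3 ± 6.96 FPKM, followed by Ccnd2 with 60.2 ± 1.81 and Ccnd3 with 59.3 ± 0.550, whose ranges overlapped. Cdkn1b, Rb1, Cdk6, Cdkn1a and Cdkn2c followed between 51.8 and 15.0 FPKM with no overlap of neighbouring ranges, and Cdkn2d (1.69 ± 0.420) and Ccnd1 (1.43 ± 0.0977) came last and overlapped. In IgE cells the ranges of Rb1 and Cdk6, and of Cdk6 and Cdkn1b, also overlapped. In antigen cells Ccnd2 was first with 144 ± 7.95 FPKM and Cdkn1a had moved from the seventh to the third place, while Cdkn1b had moved from the fourth to the seventh.

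**Figure D1:**
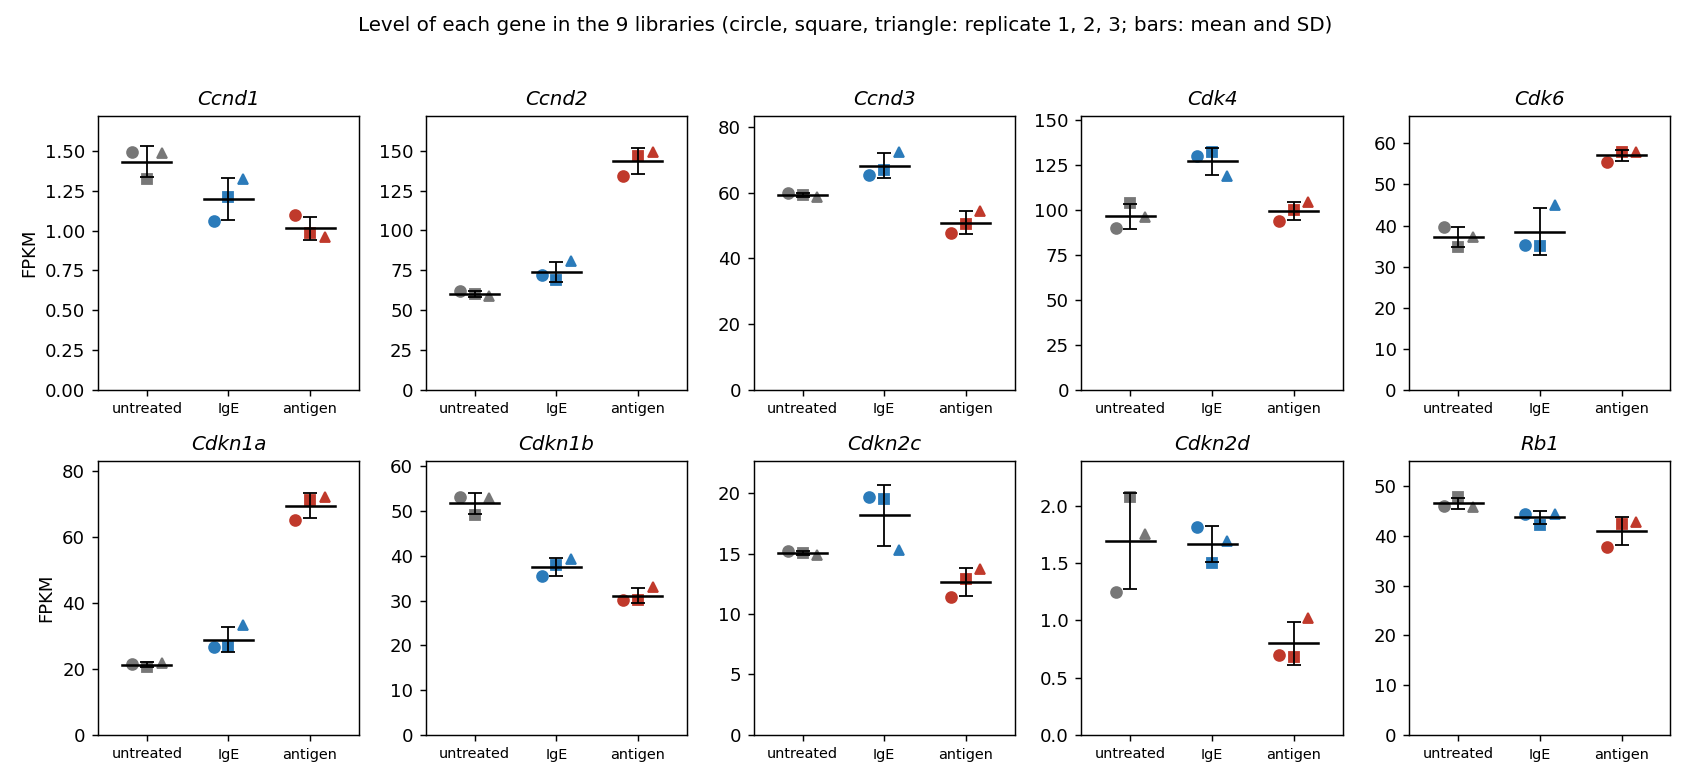
FPKM of each of the 10 genes (vertical axes, linear, from 0) in the untreated, IgE and antigen libraries, with a point for each library and bars for the mean and SD of 3. Ccnd2, Cdk6 and Cdkn1a are highest in all 3 antigen libraries, and Cdkn1b is highest in all 3 untreated libraries.

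The antigen response was set beside IgE alone to show what the cross-linking of the receptor did within 2 h. Cdkn1a, Ccnd2 and Cdk6 rose, and Ccnd3, Cdk4, Cdkn1b, Cdkn2c and Cdkn2d fell. The 3 rises compare with 36.2% of all tested genes called higher and the 5 falls with 34.9% called lower, so the number of calls is near the background and the description rests on the single genes. The IgE and antigen values did not overlap for 8 of the 10 genes. Overlap was not counted over all tested genes, so this number has no background to be set beside. The median size of the change, regardless of sign, was 0.45 over the 10 genes and 0.335 over all genes tested.

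IgE alone was set beside untreated cells to show what binding of IgE without antigen did over 18 h. Cdk4, Cdkn1a, Ccnd2 and Ccnd3 rose, and Cdkn1b fell. The 4 rises compare with 14.5% of all tested genes called higher and the 1 fall with 13.1% called lower. The values of 7 genes did not overlap between the groups, again with no count over all tested genes. The median size of the change was 0.222, against 0.115 over all genes tested. Antigen against untreated cells gave 3 rises (Ccnd2, Cdk6, Cdkn1a) and 5 falls (Ccnd1, Ccnd3, Cdkn1b, Cdkn2d, Rb1), beside 37.2% and 34.4% of all tested genes. In that comparison 9 of the 10 genes did not overlap, also without a count over all tested genes. The comparisons share libraries, so their directions for a gene are not independent of each other.

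**Figure D2:**
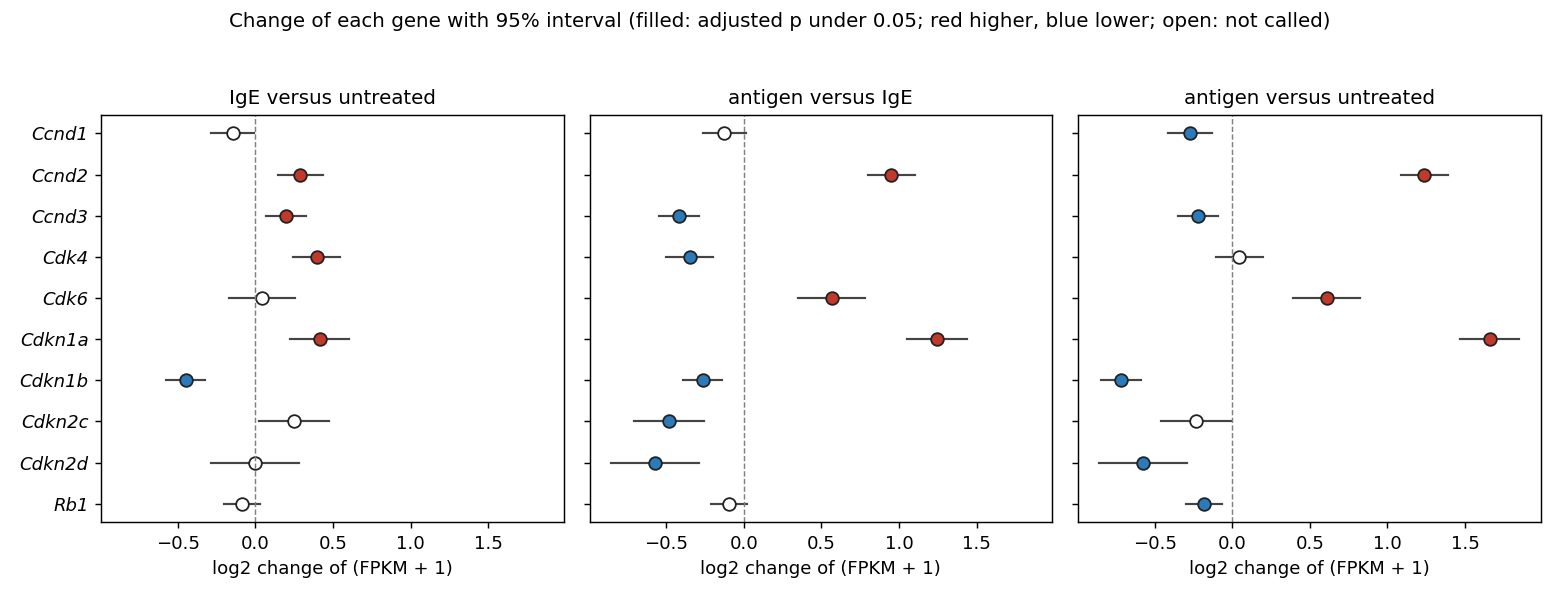
Log2 change of FPKM + 1 (horizontal axes) of each gene in the 3 comparisons, with points for the estimate and lines for the 95% interval, filled where the adjusted p was under 0.05. Cdkn1a and Ccnd2 lie farthest to the right in both antigen panels, and Cdkn1b lies left of 0 in all 3 panels.

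Ccnd2, the cyclin D2 gene, was the member of the D-type cyclin family that antigen raised. Its level was 62.2, 60.0 and 58.6 FPKM in untreated replicates 1 to 3, 72.2, 68.9 and 80.8 in IgE, and 134, 147 and 149 in antigen libraries. Every antigen library exceeded every IgE library, and every IgE library exceeded every untreated one. Antigen raised it 1.94-fold over IgE (log2 0.95, SE 0.064, adjusted p = 2.68e-06), a change whose size 13.6% of tested genes exceeded. Over 21 alternatives this log2 change was 0.65 to 1.01 and always called. With single libraries left out it was 0.90 to 1.01, so the smaller values came from other settings. The rise from untreated to IgE was 1.23-fold (log2 0.29, SE 0.064, adjusted p = 0.0128), and quantile normalization ended this call (log2 0.24, adjusted p = 0.0594).

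Ccnd3, the cyclin D3 gene, went the other way under antigen from the same starting level. It stood at 59.8, 59.4 and 58.7 FPKM in untreated, 65.4, 66.8 and 72.5 in IgE, and 47.7, 50.3 and 54.6 in antigen libraries. The 3 groups did not overlap, with IgE highest and antigen lowest. Antigen lowered it 1.34-fold from IgE (log2 -0.42, SE 0.055, adjusted p = 1.71e-04) and 1.17-fold from untreated cells (log2 -0.22, SE 0.055, adjusted p = 0.00651). The latter change was -0.44 with quantile normalization. The rise with IgE alone was small (log2 0.20, SE 0.055, adjusted p = 0.0309), and the call was lost in 7 of 21 alternatives: without any 1 of the 3 untreated libraries or IgE replicates 2 or 3, with median centring and with quantile normalization (adjusted p = 0.0538 to 0.142).

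Ccnd1, the cyclin D1 gene, was near the filter in every library. It was listed at 1.49, 1.32 and 1.49 FPKM in untreated, 1.06, 1.21 and 1.33 in IgE, and 1.09, 0.985 and 0.962 in antigen libraries, from an estimated 76 to 183 reads per library. The IgE range overlapped both others, while untreated and antigen libraries did not overlap. Antigen cells were 1.41-fold lower than untreated cells (log2 -0.27, SE 0.0608, adjusted p = 0.00357), a call that quantile normalization ended (log2 -0.10, adjusted p = 0.299). The values against IgE were log2 -0.13 with an interval of -0.265 to 0.0148 (adjusted p = 0.0968), and -0.17 without IgE replicate 1 (adjusted p = 0.0405). Those of IgE against untreated were -0.15 with an interval of -0.288 to -0.00775 (adjusted p = 0.108), and -0.19 without IgE replicate 3 (adjusted p = 0.0493).

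With Ccnd2 and Ccnd3 moving apart, the make-up of the D-type cyclin RNA shifted. Ccnd2 held 49.8% ± 0.519 of the summed D cyclin FPKM in untreated, 51.6% ± 1.08 in IgE and 73.5% ± 0.603 in antigen libraries (n = 3 each). Ccnd3 held 49.0% ± 0.514, 47.6% ± 1.04 and 26.0% ± 0.613, and Ccnd1 1.19% ± 0.081, 0.835% ± 0.0626 and 0.521% ± 0.0672. The ratio of Ccnd2 to Ccnd3 was 2.82, 2.92 and 2.74 in the antigen libraries, 1.10, 1.03 and 1.12 in IgE, and 1.04, 1.01 and 0.997 in untreated libraries. The shares in antigen libraries lay outside the range of the other groups for all 3 genes. An exact two-sided permutation test of 3 against 3 libraries cannot go below p = 0.1, which the antigen comparisons reached (adjusted p = 0.129 over 18 tests of family shares). The summed D cyclin level was 121 ± 2.36 FPKM in untreated, 143 ± 9.71 in IgE and 195 ± 11.1 in antigen libraries.

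**Figure D3:**
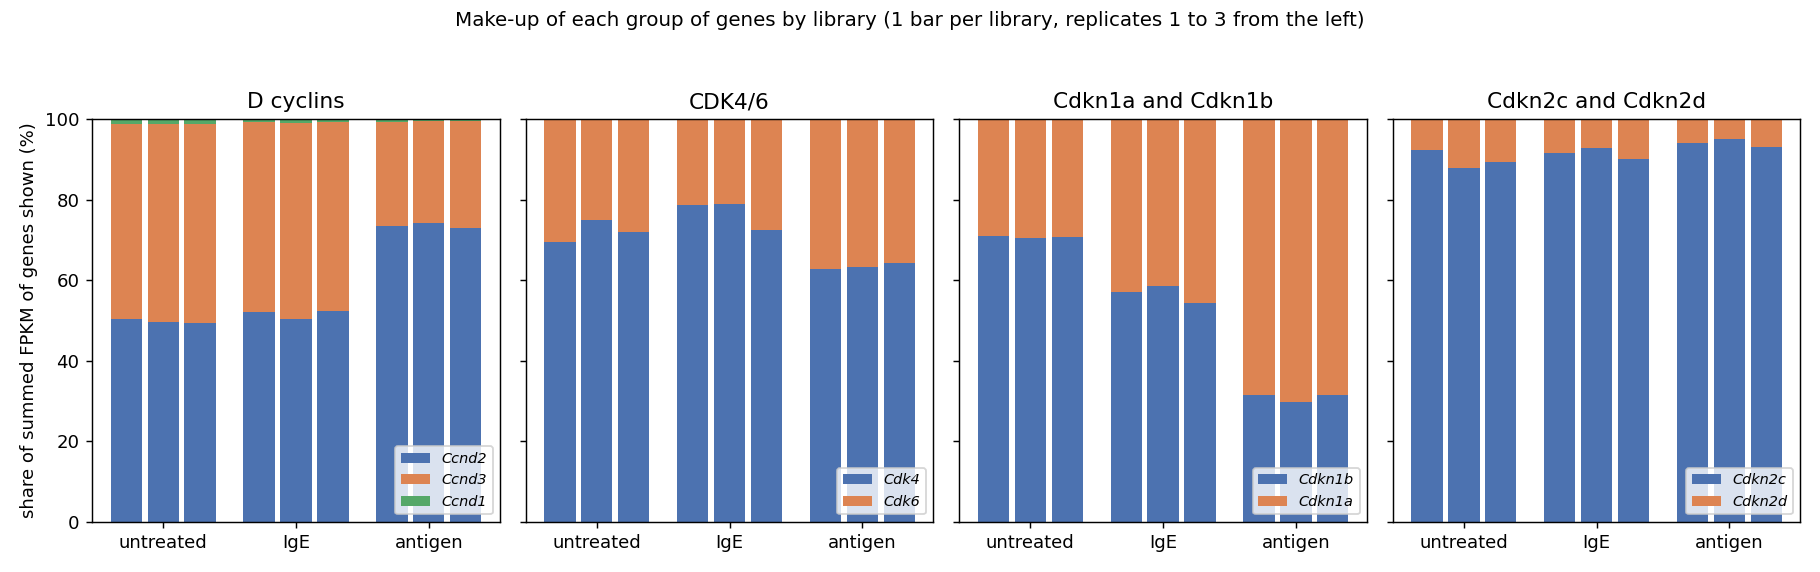
Share of each gene in the summed FPKM of the genes shown (vertical axis, percent, from 0) with 1 stacked bar per library, for the D cyclins, Cdk4 and Cdk6, Cdkn1a and Cdkn1b, and Cdkn2c and Cdkn2d, the last pair being only part of the INK4 family. Ccnd2 holds 72.9% to 74.1% of the D cyclin sum in antigen libraries, and Cdkn1a goes from 28.9% to 29.5% in untreated to 68.4% to 70.2% in antigen libraries.

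Cdk4, a catalytic partner of the D cyclins, rose with IgE and fell with antigen. It stood at 89.7, 104 and 95.7 FPKM in untreated, 130, 132 and 119 in IgE, and 94.03, 99.7 and 104 in antigen libraries. IgE libraries lay above all others, and untreated and antigen libraries overlapped. IgE raised it 1.32-fold (log2 0.40, SE 0.066, adjusted p = 0.00392), a size that 6.12% of tested genes exceeded. Antigen lowered it 1.28-fold from IgE (log2 -0.35, SE 0.066, adjusted p = 0.00145), or -0.63 with quantile normalization. Antigen against untreated cells gave log2 0.05 with an interval of -0.106 to 0.197 (adjusted p = 0.554), which turned to -0.28 with quantile normalization (adjusted p = 0.00446).

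The promoter of Cdk4 is shown because of the repeated E-box in it, the letters CACGTG that MYC, MAX and other basic helix-loop-helix factors can bind. Promoter letters are the 250 bases before the start site in RefSeq on GRCm38.p6, a table in which 7 of the 10 genes matched with 10 start sites, and bases in annotated exons next to the start were left out. The Cdk4 letters lie at chr10:127063285-127063533, plus strand, and the capitals mark E-boxes.
Cdk4: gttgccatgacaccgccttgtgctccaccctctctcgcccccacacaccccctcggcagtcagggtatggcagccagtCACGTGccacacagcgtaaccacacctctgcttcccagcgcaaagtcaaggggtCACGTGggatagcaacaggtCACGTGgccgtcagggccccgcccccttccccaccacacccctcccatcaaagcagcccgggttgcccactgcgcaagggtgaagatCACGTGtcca
The 4 matches start 172, 118, 98 and 11 bases before the start site. At least 1 such match, which reads the same on both strands, was in 6.02% of 32851 promoters of the same length, and at least 4 were in 7 promoters (0.0213%). Among the other matched genes, Cdk6 had 1, at 220 bases. A match is a description of letters and not a site shown to be bound.

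Cdk6, the other kinase of the D cyclins, rose with antigen. It stood at 39.6, 34.7 and 37.2 FPKM in untreated, 35.3, 35.0 and 45.0 in IgE, and 55.5, 57.95 and 57.8 in antigen libraries. All antigen libraries were above all others, and IgE replicate 3 stood above the rest of its group. Antigen raised it 1.48-fold over IgE (log2 0.57, SE 0.0934, adjusted p = 6.59e-04) and 1.54-fold over untreated cells (log2 0.61, SE 0.0934, adjusted p = 4.21e-04). Over 21 alternatives these log2 changes were 0.40 to 0.68 and 0.42 to 0.65, and always called. IgE against untreated cells gave log2 0.04 with an interval of -0.173 to 0.256 (adjusted p = 0.792), and -0.07 without IgE replicate 3. Cdk4 held 72.1% ± 2.75 of the summed Cdk4 and Cdk6 FPKM in untreated, 76.7% ± 3.69 in IgE and 63.5% ± 0.779 in antigen libraries (n = 3 each). The sum was 134 ± 4.54, 165 ± 1.84 and 157 ± 6.41 FPKM in the same order of groups.

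Cdkn1a, which codes for p21, had the largest rise of the 10 genes in both antigen comparisons. It stood at 21.6, 20.5 and 21.9 FPKM in untreated, 26.6, 26.9 and 33.2 in IgE, and 65.3, 71.2 and 72.2 in antigen libraries. The 3 groups did not overlap. Antigen raised it 2.41-fold over IgE (log2 1.25, SE 0.0831, adjusted p = 2.51e-06) and 3.26-fold over untreated cells (log2 1.66, SE 0.0831, adjusted p = 4.09e-07). Over 21 alternatives these log2 changes of Cdkn1a were 1.05 to 1.35 and 1.46 to 1.70, and always called. IgE alone raised it 1.35-fold (log2 0.41, SE 0.0831, adjusted p = 0.00865). Changes of larger size were seen in 7.91% of tested genes for antigen against IgE and in 5.42% for IgE against untreated.

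The first Cdkn1a promoter in the table is shown because p21 is a classical p53 target. Its letters lie at chr17:29090729-29090975, plus strand, and the capitals mark decamers of the p53 consensus, a search added after the letters had been seen.
Cdkn1a: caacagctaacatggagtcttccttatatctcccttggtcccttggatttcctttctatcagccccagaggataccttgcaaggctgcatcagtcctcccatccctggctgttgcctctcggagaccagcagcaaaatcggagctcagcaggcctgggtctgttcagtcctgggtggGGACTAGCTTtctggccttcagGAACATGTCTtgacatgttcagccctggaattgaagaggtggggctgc
The 2 matches start 73 and 51 bases before the start site. At least 1 on either strand was in 7.13% of 32851 promoters, and the share with 2 or more was not counted. The second Cdkn1a start site in the table had no match, and among the other matched genes Cdkn2d, which fell with antigen, had 1. In the window shown, no E2F (TTTCGCGC, TTTGGCGC or TTTCCCGC), AP-1 (TGANTCA), CRE (TGACGTCA) or Egr (GCGNGGGCG) letters were found on either strand, where 1.53%, 6.75%, 1.55% and 4.70% of promoters hold them. This says only that these letters are not in these bases.

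Cdkn1b, which codes for p27, fell at each step. It stood at 53.2, 49.1 and 53.01 FPKM in untreated, 35.4, 38.0 and 39.4 in IgE, and 30.2, 30.2 and 33.0 in antigen libraries. The 3 groups did not overlap. IgE lowered it 1.38-fold (log2 -0.45, SE 0.055, adjusted p = 0.00105), and 4.26% of tested genes changed by more. Antigen lowered it a further 1.21-fold (log2 -0.26, SE 0.055, adjusted p = 0.00248), to 1.66-fold below untreated cells (log2 -0.72, SE 0.055, adjusted p = 5.64e-06).

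The Cdkn1b promoter is shown beside that of Cdkn1a as the gene that moved the other way. It lies at chr6:134920151-134920400, plus strand, and the capitals mark CCAAT boxes (CCAAT) and the GC box of Sp1 (GGGCGG).
Cdkn1b: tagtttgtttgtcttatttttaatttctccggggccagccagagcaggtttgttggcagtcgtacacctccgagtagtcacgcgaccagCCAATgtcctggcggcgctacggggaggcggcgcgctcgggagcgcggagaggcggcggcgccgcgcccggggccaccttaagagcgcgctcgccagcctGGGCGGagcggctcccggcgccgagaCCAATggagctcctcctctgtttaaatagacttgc
The CCAAT letters start 161 and 35 bases and the GC box 61 bases before the start site, and 33.8% and 32.7% of promoters hold such letters on either strand. Forkhead letters (GTAAACA), which FOXO factors can bind, were not found in this window and are in 3.17% of promoters.

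Between them these CIP/KIP genes changed places, while the third, Cdkn1c, stayed at or under 0.495 FPKM in every library. Cdkn1a held 29.2% ± 0.31 of their summed FPKM in untreated, 43.4% ± 2.19 in IgE and 69.1% ± 1.02 in antigen libraries (n = 3 each). The ratio of Cdkn1b to Cdkn1a was 2.46, 2.39 and 2.42 in untreated, 1.33, 1.41 and 1.19 in IgE, and 0.463, 0.424 and 0.458 in antigen libraries. No library of a group reached the range of another. Each exact two-sided permutation test gave p = 0.1, the smallest it can give (adjusted p = 0.129). The sum went from 73.1 ± 3.03 and 66.5 ± 5.47 to 100.7 ± 4.91 FPKM, and the ratio of Ccnd2 to Cdkn1b from 1.17 ± 0.0592 in untreated and 1.97 ± 0.133 in IgE to 4.61 ± 0.221 in antigen libraries.

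Cdkn2c, the INK4 gene of p18, fell with antigen. It stood at 15.2, 15.0 and 14.9 FPKM in untreated, 19.7, 19.5 and 15.3 in IgE, and 11.4, 12.9 and 13.7 in antigen libraries. All antigen libraries lay below all others, and IgE replicate 3 lay just above the untreated range, apart from its own group. Antigen lowered it 1.43-fold from IgE (log2 -0.48, SE 0.0983, adjusted p = 0.00225). IgE against untreated gave log2 0.25 (interval 0.0211 to 0.473, adjusted p = 0.0983), and 0.36 without IgE replicate 3 (adjusted p = 0.00736). Antigen against untreated gave log2 -0.24 (interval -0.461 to -0.00901, adjusted p = 0.0596), which passed the threshold in 7 of 21 alternatives, among them without IgE replicate 3 (adjusted p = 0.0089) and without antigen replicate 3 (adjusted p = 0.0262).

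Cdkn2d, the INK4 gene of p19, was a low gene that fell with antigen. It was listed at 1.24, 2.08 and 1.75 FPKM in untreated, 1.82, 1.502 and 1.69 in IgE, and 0.700, 0.676 and 1.02 in antigen libraries, from an estimated 20 to 88 reads. All antigen libraries lay below all others, and the IgE range lay within the untreated one. Antigen lowered it 2.09-fold from IgE (log2 -0.57, SE 0.123, adjusted p = 0.00294) and 2.12-fold from untreated cells (log2 -0.58, SE 0.123, adjusted p = 0.0028). With a pseudocount of 0.1 these changes were -0.995 and -0.989, and quantile normalization ended the second call (log2 -0.41, adjusted p = 0.0618). IgE against untreated gave log2 -0.0021 with an interval of -0.284 to 0.28. For this gene counting alone allows a relative error of up to 22.5% (coefficient of variation). Cdkn2c held 89.9% ± 2.33, 91.5% ± 1.41 and 94.1% ± 0.982 of the sum of Cdkn2c and Cdkn2d, which was 16.7 ± 0.335, 19.8 ± 2.49 and 13.5 ± 1.32 FPKM in untreated, IgE and antigen libraries. With the INK4 genes Cdkn2a and Cdkn2b added, the sum was 46.8 ± 2.58, 56.9 ± 2.40 and 59.6 ± 1.75 FPKM and did not fall with antigen, and Cdkn2c made up 32.2%, 31.9% and 21.3% of it. The Cdkn2a row can also hold transcripts of the ARF protein, which is no INK4 protein.

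Rb1, the retinoblastoma gene and the substrate of these kinases, moved least among the genes above 10 FPKM in the antigen comparison with IgE. It stood at 46.0, 47.8 and 45.8 FPKM in untreated, 44.4, 42.3 and 44.5 in IgE, and 37.8, 42.4 and 42.8 in antigen libraries. Untreated libraries were above all others, and IgE and antigen libraries overlapped. Antigen cells were 1.14-fold below untreated cells (log2 -0.18, SE 0.0503, adjusted p = 0.0109), or -0.37 with quantile normalization. Antigen against IgE gave log2 -0.09 (interval -0.209 to 0.0228, adjusted p = 0.13), and -0.24 with quantile normalization (adjusted p = 0.00425). IgE against untreated gave -0.09 (interval -0.205 to 0.027, adjusted p = 0.226).

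Seen by pattern, the 10 genes took 8 different courses over the steps, and Ccnd2 and Cdkn1a were the pair called higher at both steps and over both. Cdkn1b was called lower at both. Cdk4 and Ccnd3 were called higher with IgE and lower with antigen, and Cdk6 was called higher in both antigen comparisons. With antigen against IgE, Ccnd2 and Ccnd3, Cdk6 and Cdk4, and Cdkn1a and Cdkn1b went in opposite directions, while Cdkn2c and Cdkn2d both fell. Among the 10 genes, those of the same family lie on different chromosomes, while Ccnd2 and Cdkn1b share chromosome 6 and Ccnd3 and Cdkn1a share chromosome 17.

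Whether strand was used in counting is not given in the sources used here, and without it reads of overlapping genes on the opposite strand cannot be told apart. Cdkn1b, Cdkn2c and Cdkn2d have no exon overlap with another gene in GENCODE M21. Rb1 overlaps Lpar6, which went from 144 ± 1.29 in untreated through 97.2 ± 5.48 to 69.2 ± 3.35 FPKM in antigen libraries, and Rcbtb2, which went from 36.4 ± 0.556 through 31.7 ± 1.99 to 11.3 ± 0.317. Cdk4 overlaps Tspan31, whose level was 64.1 ± 0.858, 63.1 ± 1.70 and 58.6 ± 0.654 FPKM. Ccnd3 overlaps Bysl, at 10.1 to 11.7 FPKM by group mean, and has a pseudogene. Ccnd1 overlaps Oraov1, which at 7.28 to 10.8 FPKM by group mean was above Ccnd1 itself. Ccnd2 overlaps the antisense genes 9330179D12Rik, which stayed under 1 FPKM by group mean, and Gm43126. Gm43126 and the partners of Cdk6 and Cdkn1a were not analysed here.

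The genes most like each member over the 9 libraries were named by Pearson's r of log2(FPKM + 1), as a description in which the group differences dominate. Ddr1, a collagen receptor, was among the nearest for both Ccnd2 (r = 0.9981) and Cdkn1a (r = 0.9982), going from 1.61 ± 0.0198 and 2.32 ± 0.304 to 5.74 ± 0.374 FPKM. Ywhaz was the other near gene of Ccnd2 (r = 0.9978) and Steap3 of Cdkn1a (r = 0.9983). Such likeness was common for these genes: 1187 tested genes had r over 0.95 with Ccnd2 and 1118 with Cdkn1a, against 3 with Rb1, 13 with Cdkn2c and 14 with Ccnd1. Cdkn1b was most like Rora and Dtx3 (r = 0.9903 each), and Cdk4 most like Pank3 (r = 0.9928) and Nup205 (r = 0.9894). Cdk6 was most like Tjap1 (r = 0.9962) and Ago1 (r = 0.9951), and Ccnd3 most like Tmem129 (r = 0.996) and Zfp422 (r = 0.9895). Cdkn2c was nearest to Arl6ip1 (r = 0.9854) and Vps45 (r = 0.9675), and Cdkn2d to Dnmt3b (r = 0.9812) and Scoc (r = 0.981). Ccnd1 was nearest to Ppp1r12c (r = 0.9719) and Cacnb2 (r = 0.9697), and Rb1 to Ikzf5 (r = 0.9547) and Mon2 (r = 0.9527).

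Around these genes, 8 lists of the pathway were counted in the same fit, and their values are given as counts beside the shares of all tested genes above. Of 12 pocket protein and E2F genes, 2 rose and 8 fell with antigen against IgE, and 7 rose and 1 fell with IgE against untreated. The Rb1 relatives Rbl1 and Rbl2, which code for p107 and p130, fell from 27.2 ± 0.664 to 13.2 ± 0.200 FPKM and from 46.6 ± 0.724 to 23.4 ± 0.620 with antigen (log2 -0.98 and -0.96, beside -0.09 for Rb1). E2f1 rose from 5.598 ± 0.351 to 8.26 ± 0.395 FPKM with IgE and fell to 3.16 ± 0.118 with antigen. Of 10 genes of cyclin E, cyclin A, CDK2 and CDK activation, 6 rose and 0 fell with IgE, and 2 rose and 5 fell with antigen. The 2 rises were 1 without any 1 of the IgE or antigen libraries and with median centring, and 0 with quantile normalization. Ccne1, the cyclin E1 gene, went from 3.33 ± 0.158 to 7.19 ± 0.433 and back to 3.72 ± 0.488 FPKM, and Cdk2 from 19.2 ± 0.573 to 24.8 ± 0.507 and 14.2 ± 0.159. Ccna2 had 51.3 ± 1.41, 69.9 ± 2.80 and 50.0 ± 1.41 FPKM in the same order. Cdk4 followed the same order of groups as Ccne1, with IgE highest, and Ccnd2 did not.

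Of 25 DNA replication and proliferation genes, 24 rose with IgE, and 1 rose and 21 fell with antigen against IgE. Mcm3, a helicase subunit, had 59.5 ± 1.51 FPKM in untreated, 88.9 ± 2.24 in IgE and 49.7 ± 0.636 in antigen libraries, and Mcm7 had 35.6 ± 1.97, 58.0 ± 0.648 and 31.4 ± 1.38. Mcm4 fell with antigen from 51.0 ± 0.883 to 26.4 ± 0.496 FPKM, and Cdc6, the helicase loader, from 6.46 ± 0.483 to 1.95 ± 0.163. Pola1, on chromosome X, was listed at 0 in antigen replicate 3. Cul4b of the ubiquitin ligase list and Foxo4 of the FOXO list, both counted below, were also listed at 0 there. Their SE were 1.05, 0.907 and 0.69 in this order, and none of them was called in any comparison. Ccnd2 and Cdkn1a were raised by antigen in libraries in which most of the 25 replication and proliferation genes were lower than with IgE.

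Of the 5 tested genes of other CDK inhibitors and inhibitor partners, 2 rose and 2 fell with antigen. Cdkn2b, the INK4 gene of p15, had 2.87 ± 0.155 FPKM in IgE and 9.85 ± 0.420 in antigen libraries, a rise (log2 1.49, SE 0.0836, adjusted p = 8.64e-07), opposite in direction to Cdkn2c and Cdkn2d. Cdk5rap3 fell from 19.8 ± 0.708 to 11.7 ± 0.0209 FPKM, and Cdkn3, a phosphatase that acts on CDK2, from 23.6 ± 0.679 to 13.6 ± 1.63. With IgE 2 rose, Cdkn3 and Cdkn2a (27.7 ± 2.42 to 34.2 ± 3 FPKM, adjusted p = 0.0315 by limma), a count that was 0 without untreated replicate 1 and 1 without untreated replicate 2 or any 1 IgE library. Of 15 genes in a list of ubiquitin ligases drawn up around D cyclins, p21 and p27, 2 rose and 6 fell with antigen, 1 and 10 with quantile normalization. Whether each of them acts on these proteins in these cells was not tested. Fbxw7 rose from 20.99 ± 0.675 to 56.8 ± 1.37 FPKM, while Dtl, a substrate receptor for p21, fell from 8.41 ± 0.383 to 2.65 ± 0.202 and Fbxo4 from 5.26 ± 0.353 to 2.81 ± 0.180. With IgE 4 rose, among them Dtl and Cks1b (44.6 ± 4.99 to 61.4 ± 1.29 FPKM), the cofactor of the p27 ligase, and 2 fell, or 1 without untreated replicate 2 or 3, IgE replicate 1 or 2, or antigen replicate 2.

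Beside Cdkn1a, 19 tested p53 targets gave 9 rises and 6 falls with antigen, and 7 rises and 2 falls with IgE, or 4 rises without untreated replicate 1 or IgE replicates 1 or 2. With antigen Plk3 rose from 2.78 ± 0.150 to 22.7 ± 1.2 FPKM and Mdm2, the p53 ligase, from 32.4 ± 1.13 to 67.4 ± 2.06, while Phlda3 fell from 17.8 ± 0.304 to 10.8 ± 0.173. With IgE Bax rose from 82.5 ± 1.4 to 101.4 ± 7.29 FPKM and Sesn1 fell from 29.1 ± 0.474 to 23.7 ± 0.975. Beside Cdkn1b, itself a known FOXO target, 18 tested FOXO factors and targets gave 0 rises and 9 falls with IgE, and 8 rises and 8 falls with antigen. With IgE Txnip fell from 460 ± 20.7 to 259 ± 7.2 FPKM and Pik3ip1 from 59.2 ± 3.36 to 40.6 ± 1.69. With antigen Bcl6 rose from 1.57 ± 0.0544 to 31.4 ± 1.38 FPKM, Gabarapl1 from 134 ± 9.12 to 448 ± 16.7 and Il7r from 1.001 ± 0.177 to 6.89 ± 0.0205. Cdkn1b, unlike these 3, fell at that step. The 8 falls of the list at that step include Txnip (to 208 ± 2.49 FPKM) and Pik3ip1 (to 13.7 ± 0.575).

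Of 22 tested transcription factors known to act on the 10 genes, 15 rose and 3 fell with antigen (5 fell with quantile normalization). Egr2 went from 0.144 ± 0.0266 to 52.0 ± 1.83 FPKM, Ets1 from 7.19 ± 0.102 to 25.8 ± 1.01 and Jun from 15.7 ± 1.17 to 45.8 ± 0.588. With IgE 3 rose and 4 fell, with 2 falls without untreated replicate 3 or IgE replicate 1, 8 falls without IgE replicate 3, and 1 rise without untreated replicate 3. Egr1 rose from 0.266 ± 0.1 to 3.31 ± 0.399 FPKM and Stat3 fell from 44.8 ± 1.83 to 33.8 ± 2.06.

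**Figure D4:**
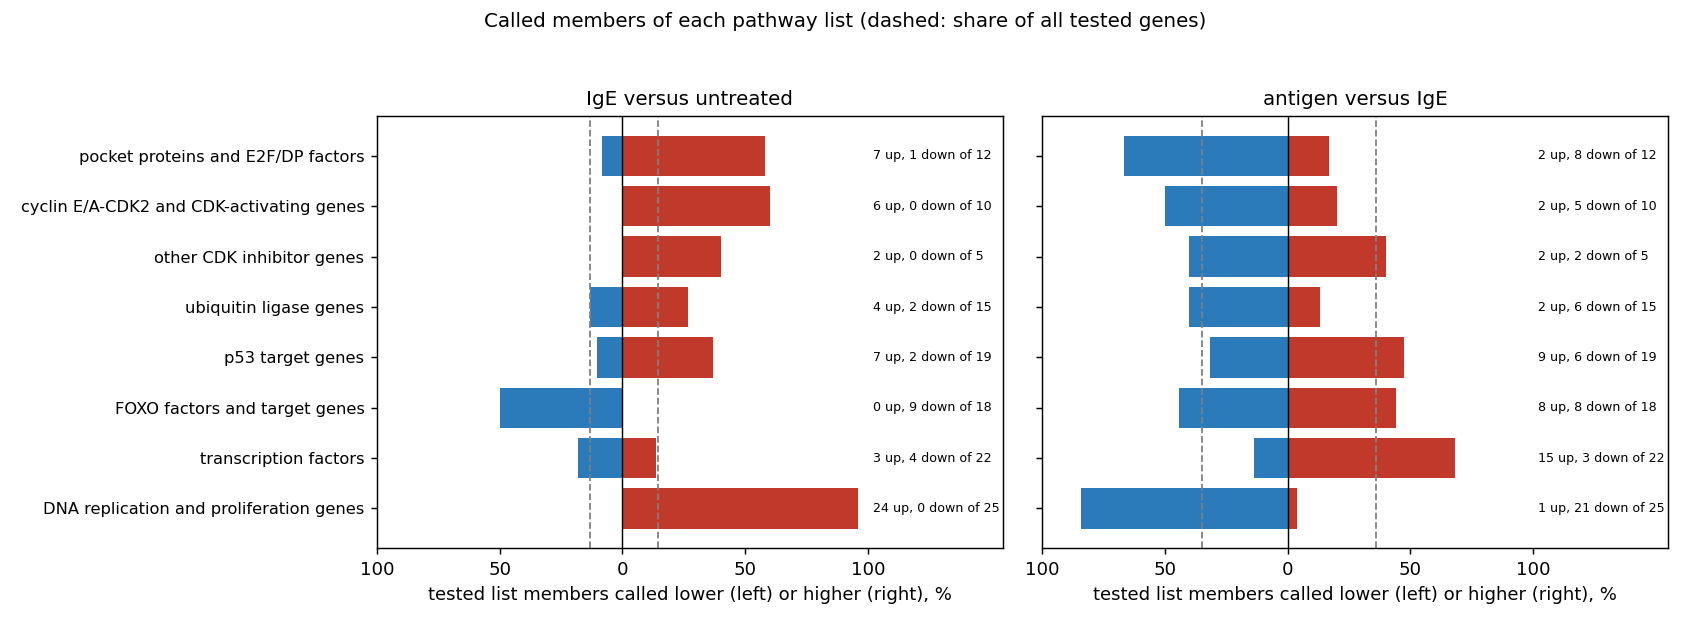
Percent of the tested genes of each list called higher (right, red) or lower (left, blue) in IgE against untreated and antigen against IgE, with dashed lines at the share of all tested genes. The DNA replication list has 24 of 25 genes higher with IgE and 21 of 25 lower with antigen.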

How the data were processed

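RNA sequencing of 9 mast cell libraries, 3 in each of 3 groups, was available as 1 table of FPKM values computed by the authors and deposited by gene symbol. Per the submitters' processing notes, the alignment to mm9 used TopHat2 2.0.12 with Bowtie 0.12.7. Not given in the sources used here are the FPKM program, its annotation and whether strand was used. Groups came from the sample titles and columns were matched to samples by name. The 10890 of 23951 genes that reached 1 FPKM in 3 or more of the 9 libraries were tested on log2(FPKM + 1) with limma 3.58.1 (R 4.3.3), using a trended prior and no covariate, all libraries sharing the spread. Tests were two-sided, with Benjamini-Hochberg adjustment over all tested genes in each comparison. The log2 scale with a pseudocount of 1 understates the change of low genes. The script was tested on simulated data.

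The members and the gene lists were chosen with earlier results of these data known. Named genes were the 10 members, the 3 called list genes with the smallest adjusted p in antigen versus IgE and the 2 in IgE versus untreated, and the 2 genes most like each member. Family shares were compared by exact permutation tests. Depth was estimated from steps of the low values in 2966 genes with a single transcript, so estimated reads per gene cover counting error only and assume the longest coding transcript. The labels do not say whether replicates were cultured separately, so the p-values reflect the spread of these libraries alone, and that may be technical. Promoter letters come from RefSeq (GRCm38.p6) and no coordinates are given in mm9. Alternatives were the pseudocount, the filter, the scaling, the prior, the libraries fitted, a replicate block and each library left out. The treatment of the chromosome X and Y zeros, and leaving out IgE replicate 3 with antigen replicate 3, were chosen after seeing the data.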

Additional observations from a re-analysis of the deposited data

How the results depend on the processing

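Of 126 recomputed counts of called members, 3 moved by more than 1.5 times. With quantile normalization 2 members were called higher with IgE, against 4 as reported. Members called lower with IgE numbered 1 to 2 with single libraries left out, and the 2 came without IgE replicate 3, where Ccnd1 passed. A filter at 5 FPKM removes Ccnd1 and Cdkn2d and left 3 members called lower in antigen versus untreated, against 5. Among 624 recomputed log2 changes of members, 10 lost and 12 gained a call with the sign kept, and 11 changed sign. None of the 11 was called as reported, and 1 was called in the alternative (Cdk4 with quantile normalization, below). IgE versus untreated Cdkn2d (-0.0021) was 0.00536 and 5.15e-04 with pseudocounts of 0.1 and 0.5, 0.05984 with quantile normalization, and -0.1272 to 0.1004 with single libraries left out. Cdk6 in that comparison (0.04) was -0.07444 to 0.1023 with single libraries left out and -0.07444 without both IgE replicate 3 and antigen replicate 3. Antigen versus untreated Cdk4 (0.05) was -0.2776 with quantile normalization (adjusted p = 0.00446 by limma) and -0.004319 to 0.09839 with single libraries left out. Apart from the effect of the filter, the cause was not tested. None of the 120 recomputed values for the family shares changed direction. Share differences with a library left out moved by less than the spread between replicates. The other values were log2 ratios of 1 gene to another and were compared by direction only.

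Counts over all genes depended on the library in IgE versus untreated: 1575 higher and 1424 lower became 1015 and 881 without untreated replicate 1, 859 lower without untreated replicate 3 and 1939 and 1950 without IgE replicate 3. Of 1008 recomputed list counts 47 moved by more than 1.5 times. Beside those named above, a 5 FPKM filter gave 5 falls of FOXO genes at each step and 0 rises of E2F genes with antigen. No scaling moved the median change of all genes by 0.1, but single members moved by more. Cdk4 in antigen versus IgE went from -0.35 to -0.63 with quantile normalization. The summed FPKM was 554415 to 575197 in antigen libraries and 469206 to 524935 in the others, and its part in this was not tested. Replicate numbers gave no clear pairing of the libraries, although a check on 3 libraries per group cannot exclude shared cultures. The correlation of deviations was -0.153 to 0.35 for the 9 pairs with the same number and -0.349 to 0.244 for the 18 others. The value of 0.35 was that of untreated and IgE replicates 2, and 5 of 18 best matches shared the number. A replicate block changed no call of a member but left 1 of 3 rises in the transcription factor list and 1 of 2 falls in the ligase list with IgE. Under the block 4 members were called higher and 1 lower with IgE, and 3 higher and 5 lower with antigen. Depth limits Cdkn2d and Ccnd1, with as few as 20 and 76 estimated reads.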
